A study of Mus musculus with 6 samples.

Results

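The glutathione, peroxidase and Nrf2 genes are the enzymes that make and use glutathione, remove hydrogen peroxide and superoxide, and supply the NADPH for both, together with the transcription factor Nrf2 and its inhibitor Keap1. They were chosen by a rule on gene symbols: glutathione transferases, microsomal glutathione transferases, glutathione peroxidases, peroxiredoxins and 18 single genes of the same systems. Of 19938 genes with their own transcript cluster (the probe set of 1 transcript region), 51 met the rule, with 55 transcript clusters of 35557 on the array. Gsta1, Gsta2 and Gstp2 had only transcript clusters shared with other symbols, and G6pdx, Prdx5 and Prdx6 were not analysed here.

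Total RNA was compared between 3 MLE15 cell lines transduced with lentivirus carrying Nkx2-1-shRNA and 3 MLE15 lines transduced with the non-silencing control, 1 Affymetrix Mouse Gene 1.0 ST array per line. Nkx2-1 is a homeobox transcription factor of lung and thyroid epithelium, and the study asked which transcripts change when it is lowered. MLE15 cells are mouse lung epithelial cells grown from lung tumors of transgenic mice, in which the promoter of human surfactant protein C drives a viral oncogene, the large T antigen of simian virus 40. All 6 lines share this background and were selected with puromycin. The knock-down came from a mix of 3 shRNAs, so no single shRNA can be told apart from another. The labels call the control the empty vector and give 48 h, while the methods describe stable lines, transduced independently, that were frozen and expanded again.

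Glutathione is a tripeptide whose synthesis is limited by glutamate-cysteine ligase, and glutathione reductase returns it to its reduced form with NADPH. Glutathione peroxidases and transferases spend it on peroxides and on reactive, often lipid-derived, molecules. Peroxiredoxins do the first of these jobs with thioredoxin in its place. Many of these genes carry an antioxidant response element, the DNA site bound by Nrf2, which Keap1 otherwise holds for degradation until oxidants or electrophiles modify it. In the lung, which faces inhaled oxygen and oxidants, these systems are a major part of epithelial defense.

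On the log2 scale, Nkx2-1 itself measured 7.91, 7.98 and 7.83 in Nkx2-1-shRNA lines, against 8.61, 8.61 and 8.59 in control lines. It fell to 61.8% of the control level (log2 fold change -0.69, SE 0.076, limma adjusted p = 0.00155). An exact two-sided permutation test gave p = 0.1, the smallest that 3 lines against 3 can give, and limma is therefore the test used from here on. Arrays of the same group correlated at 0.991 to 0.994 and arrays of different groups at 0.979 to 0.983. A value of 4.35, the 95th percentile of 1248 transcript clusters of odor, pheromone and taste receptors, served as the background limit. Of 10 lung epithelial markers, 9 lay above it in Nkx2-1-shRNA lines and 10 in control lines, the difference being Sftpc (4.08 in Nkx2-1-shRNA lines and 7.73 in control lines). Their summed log2 values were 89.61 to 90.57 against 91.63 to 92.84, and Sftpc alone changed by -3.65 (adjusted p = 2.0e-04). The other markers went both ways. Krt19 (1.19, adjusted p = 0.00291), Krt18 (0.44, adjusted p = 0.00825) and Sftpd (0.44, adjusted p = 0.0349) rose. Sftpa1 (-0.41, adjusted p = 0.0144) fell, as did Nkx2-1. Sftpb, Cdh1, Epcam and Krt8 did not pass the test. The endothelial markers Pecam1, Cdh5 and Kdr, the leukocyte markers Ptprc and Itgam and the fibroblast markers Dcn and Lum were below background in both groups. Of the whole lists, 4 and 4 of 6 fibroblast markers, 1 and 2 of 5 endothelial markers and 2 and 2 of 4 leukocyte markers exceeded the limit in Nkx2-1-shRNA and control lines. The sums of these lists were 26.55 to 26.98 against 26.41 to 26.76, 20.71 to 21.71 against 22.45 to 23.07, and 17.69 to 18.21 against 18.08 to 19.12. Among the endothelial markers Tek fell by 2.00 (3.77 in Nkx2-1-shRNA lines and 5.77 in control lines, adjusted p = 4.1e-04) and Vwf rose by 0.41 (adjusted p = 0.025). The part of other cell types in the results was not tested. In RNA of a whole culture, fewer cells of a kind and less RNA per cell cannot be told apart.

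Across the 51 genes, 16 fell and 3 rose in Nkx2-1-shRNA lines at an adjusted p under 0.05, and 32 did not pass the test. Each level below is a log2 value, and each difference, rise or fall is a log2 fold change, Nkx2-1-shRNA mean minus control mean. The 16 that fell were 31.4% of the genes, beside 9.24% of all transcript clusters on the array. The 3 that rose were 5.88%, beside 7.61% of all transcript clusters. The median log2 fold change of the 51 genes was -0.19, beside -0.007 for all genes. At the stricter threshold of the study (adjusted p under 5e-04 and a log2 fold change beyond 0.6) Gpx8 and Gpx2 were lower and Gsto2 was higher, beside 0.456% of transcript clusters lower and 0.804% higher. Values of the Nkx2-1-shRNA and control lines did not overlap for 30 of the 51 genes, beside 34.9% of all transcript clusters. When each group was given its own variance, 7 of the 19 calls remained (Gclm, Gpx2, Gpx8, Gsto1, Gsto2, Nfe2l2 and Prdx2). That test keeps the same mean differences, so it could not change a direction.

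Of the 51 genes, 40 exceeded the background limit in at least 1 group, and all 19 that passed the test were among them. Gsta3 and Gstt3 exceeded it in control lines only. As a description, 16 of these 40 fell, beside 13.9% of the 13568 genes above background, and 3 rose, beside 15.3%. The other 11 (Nqo1, Gstm2, Gstm4, Gstm6, Gstt1, Gstt2, Gstt4, Gpx3, Gpx5, Gpx6 and Sod3) were below the limit in both groups, and their differences, between -0.46 and 0.18, say little about their RNA.

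**Figure D1:**
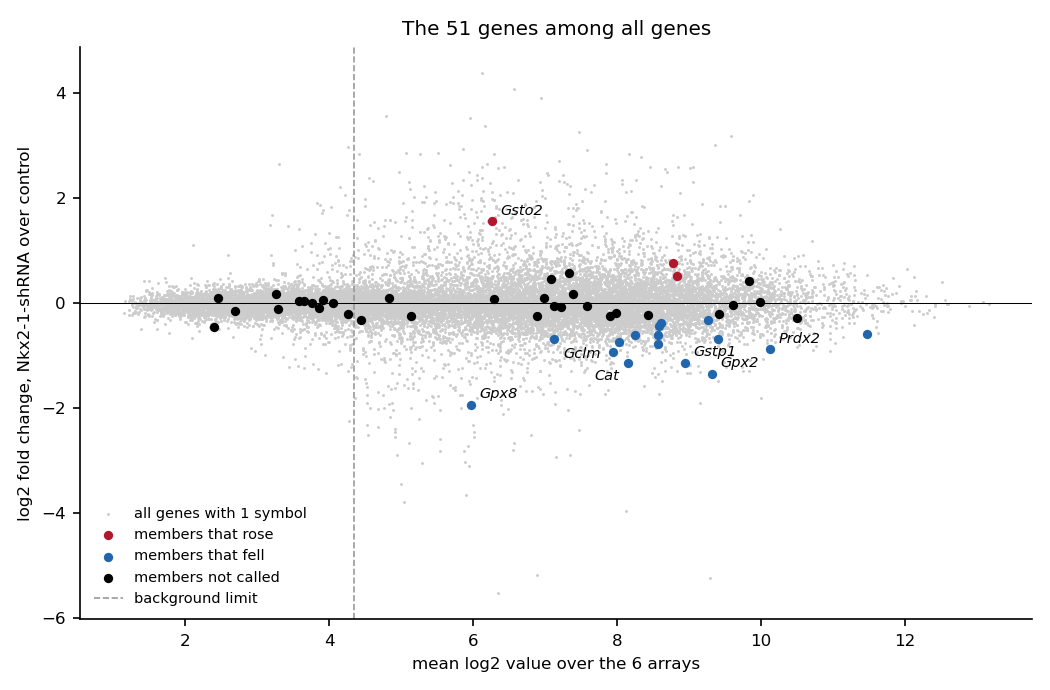
Log2 fold change (Nkx2-1-shRNA over control, vertical axis) against the mean log2 value over the 6 arrays (horizontal axis), for all 19938 genes in gray and the 51 glutathione, peroxidase and Nrf2 genes in color. Of the 51, the 16 that fell and the 3 that rose all lie right of the background limit of 4.35, and the falls reach from -0.31 to -1.93.

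Nrf2 and its inhibitor came first. Nfe2l2, the gene of Nrf2, had log2 values of 9.11, 9.07 and 9.14 in Nkx2-1-shRNA lines, against 9.48, 9.40 and 9.38 in control lines. The groups did not overlap, and Nfe2l2 fell to 80.5% of control (log2 fold change -0.31, SE 0.074, adjusted p = 0.0302). This call was a narrow one: it was lost when any line but control line 3 was left out, with adjusted p of 0.0709 to 0.103, and it stood at 0.0486 without control line 3. Keap1 had 7.11, 7.07 and 7.10 in Nkx2-1-shRNA lines and 7.21, 7.11 and 7.11 in control lines. Its difference of -0.051 (95% confidence interval -0.23 to 0.12, adjusted p = 0.718) did not pass the test and was 0.029 after median centring of the arrays.

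The group of Nrf2 target enzymes held only Hmox1 and Nqo1, which were measured at different levels of certainty. The other genes, with changes in both directions, were not sorted by whether Nrf2 controls them. Hmox1, which breaks down heme, had log2 values of 8.24, 8.18 and 8.36 in Nkx2-1-shRNA lines and 8.83, 9.00 and 8.77 in control lines. It fell to 65.5% of control (log2 fold change -0.61, SE 0.095, adjusted p = 0.00632). Nqo1, a quinone reductase often used as a readout of Nrf2, lay below the background limit on every array (2.57, 2.61 and 2.69 in Nkx2-1-shRNA lines, 2.73, 2.85 and 2.70 in control lines). No fold change can be read for Nqo1 from these arrays.

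Both subunits of the ligase that limits glutathione synthesis fell, while the synthetase and the reductase did not pass the test. Gclm, the modifier subunit of glutamate-cysteine ligase, had log2 values of 7.42, 7.55 and 7.48 in Nkx2-1-shRNA lines and 8.34, 8.49 and 8.40 in control lines. Every Nkx2-1-shRNA line was below every control line by a wide margin, and Gclm fell to 52.6% of control (log2 fold change -0.93, SE 0.082, adjusted p = 6.9e-04). Gclc, the catalytic subunit of the same ligase, had 9.15, 8.89 and 9.14 in Nkx2-1-shRNA lines and 9.80, 9.66 and 9.79 in control lines. It fell to 61.9% of control (log2 fold change -0.69, SE 0.099, adjusted p = 0.00465). Glutathione synthetase (Gss), which adds the last amino acid, differed by -0.045 (95% confidence interval -0.31 to 0.22, adjusted p = 0.843). Glutathione reductase (Gsr) had 9.99, 9.99 and 10.01 in Nkx2-1-shRNA lines and 10.01, 9.94 and 9.96 in control lines. Its values overlapped, and its difference of 0.027 had a 95% confidence interval of -0.14 to 0.19 (adjusted p = 0.851). Whether the ligase subunits and the other enzymes of the cycle changed by different amounts was not tested.

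**Figure D2:**
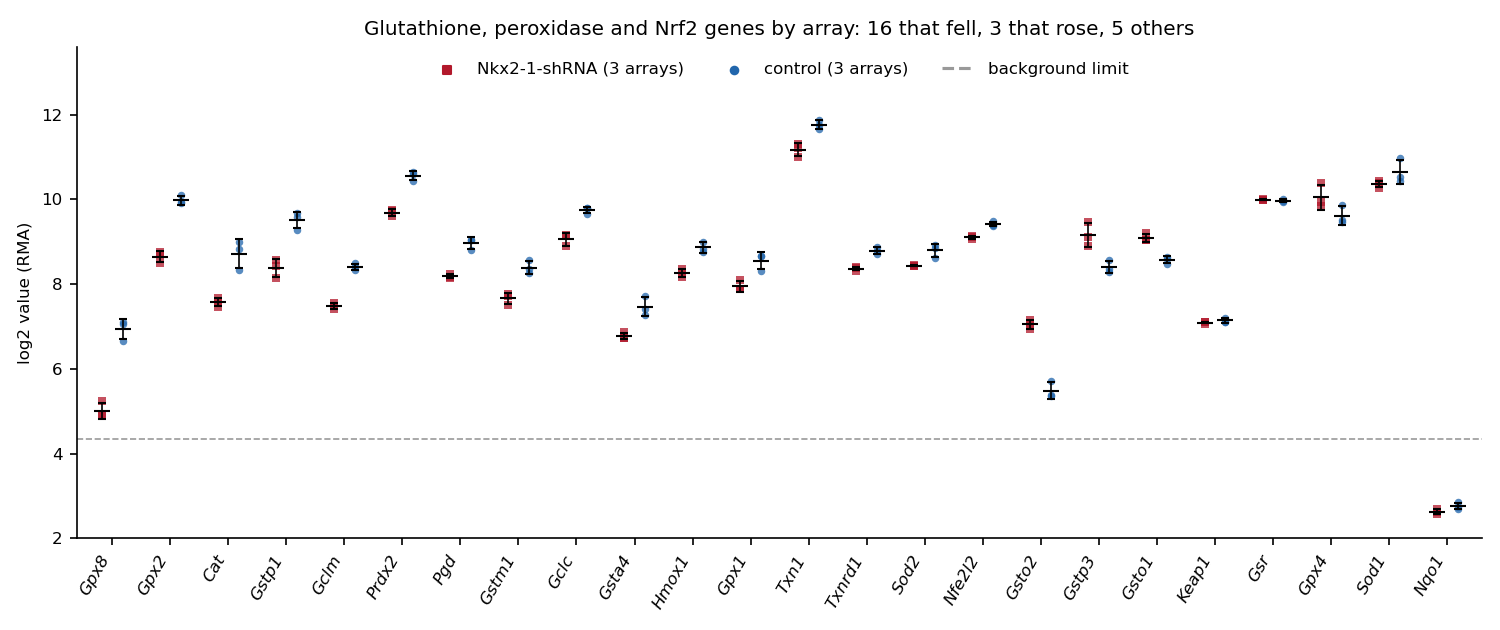
Log2 value on each array (vertical axis, log2 scale of Robust Multi-Array Analysis) for the 16 genes that fell, the 3 that rose and 5 further genes, with squares for Nkx2-1-shRNA lines and circles for control lines. Bars are group means with SD (n = 3 each) and the background limit of 4.35 is dashed. The groups are apart for each of the 19 genes that passed the test, while Nqo1 lies below the limit on all 6 arrays.

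Glutathione peroxidases held the largest falls among the 51 genes. Gpx8, a membrane protein of the endoplasmic reticulum with cysteine at its active site, had log2 values of 4.88, 4.93 and 5.23 in Nkx2-1-shRNA lines and 7.05, 7.11 and 6.66 in control lines. It fell to 26.3% of control (log2 fold change -1.93, SE 0.15, adjusted p = 4.5e-04) and came close to the background limit in Nkx2-1-shRNA lines. Gpx2, the selenoenzyme known from epithelia of the gut and airway, had 8.68, 8.76 and 8.51 in Nkx2-1-shRNA lines and 9.93, 10.11 and 9.91 in control lines. Its Nkx2-1-shRNA values were all more than 1 log2 unit below the control values, and Gpx2 fell to 39.6% of control (log2 fold change -1.34, SE 0.10, adjusted p = 4.1e-04). Gpx1, the broadly expressed cytosolic selenoenzyme, had 7.88, 8.10 and 7.88 in Nkx2-1-shRNA lines and 8.32, 8.66 and 8.67 in control lines. It fell to 66.1% of control (log2 fold change -0.60, SE 0.13, adjusted p = 0.0203). The Gpx1 call was lost without Nkx2-1-shRNA line 1 (adjusted p = 0.0761), Nkx2-1-shRNA line 3 (0.0688), control line 2 (0.0646) or control line 3 (0.062).

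The remaining peroxidases did not pass the test. Gpx4, which reduces lipid peroxides in membranes, had log2 values of 9.93, 10.38 and 9.84 in Nkx2-1-shRNA lines and 9.46, 9.87 and 9.52 in control lines. The groups overlapped, and the difference of 0.43 (SE 0.18) had an adjusted p of 0.152. The other transcript cluster of Gpx4 gave 0.42 (adjusted p = 0.144). Gpx7, a peroxidase of the endoplasmic reticulum like Gpx8, differed by 0.10 (adjusted p = 0.53), and Gpx3, Gpx5 and Gpx6 were below background.

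Of the 7 peroxiredoxin and thioredoxin genes among the 51, 3 fell, beside 13.9% of genes above background, and none rose. All 7 differences were below 0 in the main fit. That of Prdx3 turned to 0.05 after median centring and ran from -0.16 to 0.06 when each line was left out in turn. Outside the rule, Txnrd3 rose (0.75, adjusted p = 0.00201), Txnrd2 fell (-0.43, adjusted p = 0.00982) and Txn2 differed by 0.022 (adjusted p = 0.91). Prdx2, a cytosolic peroxiredoxin, had log2 values of 9.72, 9.75 and 9.60 in Nkx2-1-shRNA lines and 10.44, 10.65 and 10.60 in control lines. It fell to 54.5% of control (log2 fold change -0.88, SE 0.091, adjusted p = 0.0013), and its other transcript cluster changed by -0.68 (adjusted p = 0.00853). Thioredoxin (Txn1), the electron donor of the peroxiredoxins, had 11.30, 11.22 and 11.00 in Nkx2-1-shRNA lines and 11.66, 11.76 and 11.88 in control lines. Txn1 fell to 66.4% of control (log2 fold change -0.59, SE 0.11, adjusted p = 0.0121). Thioredoxin reductase (Txnrd1), which recharges thioredoxin with NADPH, had 8.37, 8.40 and 8.32 in Nkx2-1-shRNA lines and 8.78, 8.88 and 8.72 in control lines. Txnrd1 fell to 74.2% of control (log2 fold change -0.43, SE 0.079, adjusted p = 0.0124), a call lost without Nkx2-1-shRNA line 1 (adjusted p = 0.0517) or Nkx2-1-shRNA line 3 (0.0502). Prdx1 (-0.20), the mitochondrial Prdx3 (-0.034), Prdx4 of the secretory pathway (-0.23) and Srxn1 (-0.25), which repairs overoxidized peroxiredoxins, had adjusted p of 0.177 to 0.901. The other transcript cluster of Prdx1 gave -0.24 (adjusted p = 0.19).

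Catalase and the mitochondrial superoxide dismutase fell, and the cytosolic superoxide dismutase did not pass the test. Catalase (Cat), which splits hydrogen peroxide in peroxisomes, had log2 values of 7.67, 7.47 and 7.60 in Nkx2-1-shRNA lines and 9.00, 8.83 and 8.34 in control lines. It fell to 45.3% of control (log2 fold change -1.14, SE 0.17, adjusted p = 0.00579), with control line 3 the lowest of the control lines. Sod2, the mitochondrial manganese enzyme, had 8.42, 8.43 and 8.45 in Nkx2-1-shRNA lines and 8.86, 8.92 and 8.62 in control lines. It fell to 77.6% of control (log2 fold change -0.37, SE 0.098, adjusted p = 0.0475). The Sod2 call was lost when any line but control line 3 was left out, with adjusted p of 0.112 to 0.138, and without control line 3 its adjusted p was 0.0174. Sod1, the cytosolic copper and zinc enzyme, had 10.38, 10.43 and 10.28 in Nkx2-1-shRNA lines and 10.44, 10.53 and 10.98 in control lines. The groups just did not overlap, and its difference of -0.29 (95% confidence interval -0.64 to 0.07) had an adjusted p of 0.26. Extracellular Sod3 was below background.

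For NADPH supply, phosphogluconate dehydrogenase (Pgd), an NADPH-forming enzyme of the pentose phosphate pathway, had log2 values of 8.18, 8.24 and 8.14 in Nkx2-1-shRNA lines and 9.04, 9.05 and 8.80 in control lines. Pgd fell to 58.4% of control (log2 fold change -0.78, SE 0.096, adjusted p = 0.00255). Transaldolase (Taldo1), of the branch of the pathway that forms no NADPH, differed by -0.076 (adjusted p = 0.778).

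The glutathione transferases grouped here as cytosolic, which join glutathione to reactive molecules, had calls in both directions. Of 19, 3 fell, 3 rose and 13 did not pass the test, with a median log2 fold change of 0.0054. They were grouped by class letter, so Gstk1 of the kappa class, which is not a cytosolic enzyme, is among the 19. Of all transcript clusters, 9.24% were lower and 7.61% higher. Above background lay 13 of the 19, with the 3 that fell and the 3 that rose among them. Of all genes above background, 13.9% were lower and 15.3% higher. Whether the counts differ from these shares was not tested. All 3 genes of the 51 that rose belonged to this group. Both measured genes of the omega class, which also reduce dehydroascorbate, were among them. Gsto2 had log2 values of 7.06, 7.15 and 6.95 in Nkx2-1-shRNA lines and 5.71, 5.39 and 5.36 in control lines. It rose to 296% of control (log2 fold change 1.57, SE 0.12, adjusted p = 3.8e-04), with more than 1 log2 unit between the nearest lines of the groups. Gsto1 had 9.04, 9.20 and 9.04 in Nkx2-1-shRNA lines and 8.60, 8.64 and 8.48 in control lines. It rose to 143% of control (log2 fold change 0.52, SE 0.087, adjusted p = 0.00875).

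In the pi class the annotated genes differed in direction. Gstp1 had log2 values of 8.42, 8.56 and 8.15 in Nkx2-1-shRNA lines and 9.29, 9.67 and 9.58 in control lines, and it fell to 45.6% of control (log2 fold change -1.13, SE 0.14, adjusted p = 0.00279). The transcript clusters shared by Gstp1 and Gstp2 gave -0.92 (adjusted p = 0.00448) and -0.95 (adjusted p = 0.00498). Gstp3 had 9.11, 8.91 and 9.46 in Nkx2-1-shRNA lines and 8.56, 8.28 and 8.36 in control lines, and it rose to 169% of control (log2 fold change 0.76, SE 0.15, adjusted p = 0.0175). The Gstp3 call was lost without Nkx2-1-shRNA line 1 (adjusted p = 0.0537), control line 2 (0.0569) or control line 3 (0.0557). Genes of this class are close copies of each other, so probes can catch RNA of more than 1 of them, and that part was not tested.

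Of the mu and alpha classes, Gstm1 had log2 values of 7.51, 7.77 and 7.71 in Nkx2-1-shRNA lines and 8.26, 8.57 and 8.35 in control lines, and it fell to 60.2% of control (log2 fold change -0.73, SE 0.11, adjusted p = 0.00652). Gsta4, which acts on the lipid aldehyde hydroxynonenal, had 6.74, 6.87 and 6.73 in Nkx2-1-shRNA lines and 7.41, 7.71 and 7.27 in control lines. Gsta4 fell to 62.3% of control (log2 fold change -0.68, SE 0.13, adjusted p = 0.0123). Gstm3 gave 0.081 (adjusted p = 0.71) in the transcript cluster chosen by its higher level and 0.50 (adjusted p = 0.0127) in its other one, so the probe sets annotated to Gstm3 disagree. Mu class genes are close copies too. The 4 transcript clusters shared by Gsta1, Gsta2 and further alpha class symbols gave -0.73, -0.62, -0.27 and -0.42, at log2 values of 3.58 to 4.37 in Nkx2-1-shRNA lines and 4.30 to 4.79 in control lines, around the background limit. Above background in both groups, Gstk1 (0.47, adjusted p = 0.0807), Gstz1 (0.18, adjusted p = 0.324), Gstm5 (0.10, adjusted p = 0.575) and Gstm7 (-0.24, adjusted p = 0.246) did not pass the test. Gsta3 (-0.20, adjusted p = 0.229) and Gstt3 (-0.31, adjusted p = 0.0842) did not pass it either.

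None of the 3 microsomal transferases, membrane enzymes of a separate family, passed the test. Mgst1 differed by -0.25 (adjusted p = 0.148) and Mgst2 by -0.19 (adjusted p = 0.262), with groups that did not overlap. Mgst3 had log2 values of 7.44, 8.04 and 7.41 in Nkx2-1-shRNA lines and 6.74, 7.56 and 6.85 in control lines. Its groups overlapped, and its difference of 0.58 (SE 0.26) had an adjusted p of 0.196, or 0.0206 with replicate number as a block. With that block Gpx4 (adjusted p = 0.0372) and Gstk1 (0.0332) were called higher as well.

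**Figure D3:**
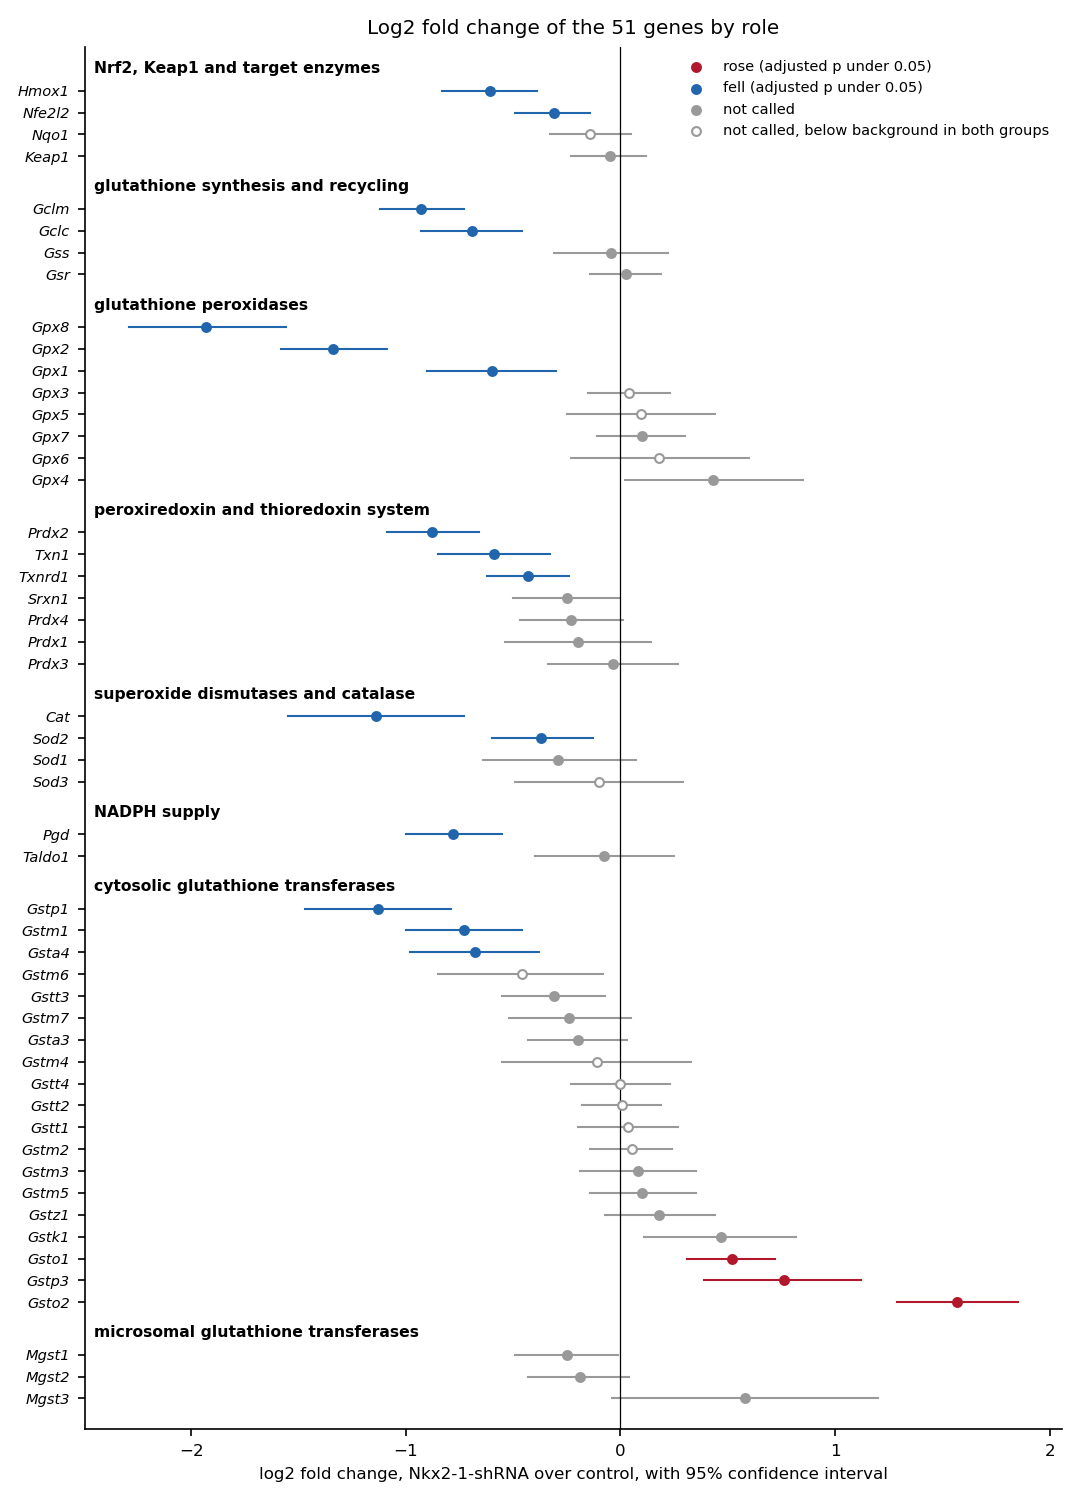
Log2 fold change (Nkx2-1-shRNA over control, horizontal axis) with its 95% confidence interval for the 51 genes, grouped by role, with open circles for genes below background in both groups. Falls that passed the test occur in 7 of the 8 roles, from Gpx8 (-1.93) to Nfe2l2 (-0.31), and the 3 rises (Gsto2, Gstp3 and Gsto1) are cytosolic glutathione transferases.

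Earlier results of these data showed stretches of chromosome with a shifted median, so each gene was set beside up to 20 genes above background on either side of it. For most of the genes that passed the test the neighbors had medians near 0. For Cat, Gstp1, Gclm, Gclc, Prdx2 and Pgd they were -0.12, 0.06, -0.07, -0.04, -0.11 and -0.07, and for Gsto2 and Gsto1, which adjoin, 0.04. The neighbors of Gpx2 on chromosome 12 had a median of -0.41, with 85% of them below 0, those of Nfe2l2 on chromosome 2 had -0.27 (82.5% below 0) and those of Gpx8 on chromosome 13 had -0.23 (79.5% below 0). The log2 fold change of Nfe2l2, -0.31, was close to that of its neighbors, while those of Gpx2 (-1.34) and Gpx8 (-1.93) lay beyond it. Gstz1, which also lies on chromosome 12, differed by 0.18 among neighbors with a median of -0.34. The part of these neighborhoods in the changes was not tested.

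**Figure D4:**
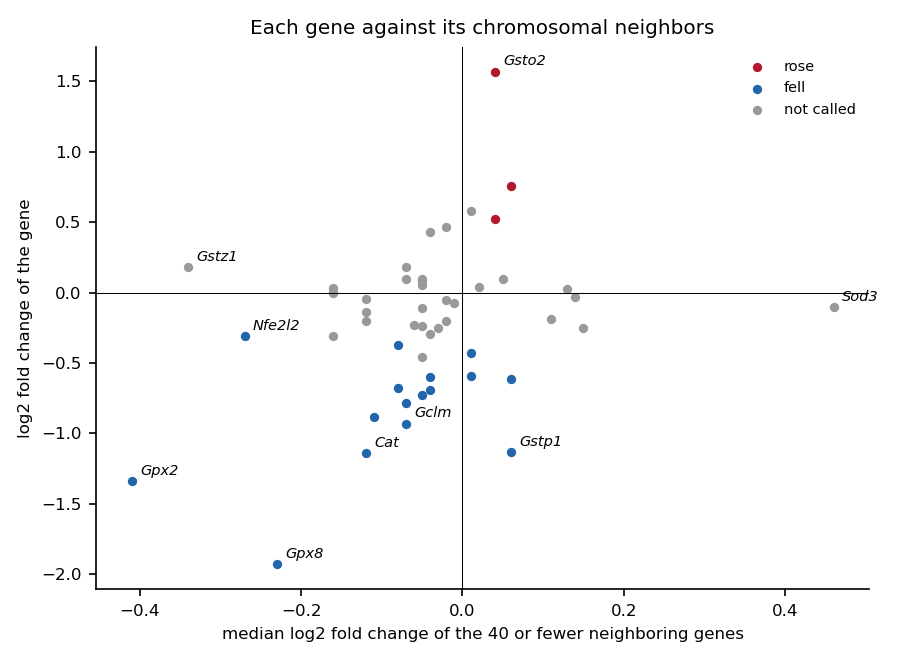
Log2 fold change (Nkx2-1-shRNA over control) of each of the 51 genes (vertical axis) against the median log2 fold change of its neighbors on the chromosome (horizontal axis). Gpx2, Nfe2l2 and Gpx8 stand left, with neighbor medians of -0.41, -0.27 and -0.23, while most genes that passed the test have neighbor medians near 0.

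Promoter windows of 300 bases (250 before to 50 after the start) from RefSeq, build GRCm38.p6, were available for 45 of the 51 genes. They were searched on both strands for TGACNNNGC, the core of the antioxidant response element, and for CACTTGA, a site bound by Nkx2-1, whose other strand reads TCAAGTG. The core was found in 11 of the 45 genes (24.4%), beside 14% of all genes, and in 11 of their 60 windows (18.3%), beside 12.4% of all windows. It was present in 4 of 13 genes that fell (Gclm, Nfe2l2, Pgd and Txnrd1), in 0 of 3 that rose and in 7 of 29 that did not pass the test (Gsta3, Gstm5, Gstm7, Mgst1, Prdx1, Sod1 and Srxn1). The Nkx2-1 letters were found in 3 genes (6.67%, beside 3.6% of all genes) and 5% of their windows (beside 3.06% of all windows): Gpx2 and Txnrd1, which fell, and Gstk1, which did not pass the test. Hmox1, Gclc and Gsta4 were among the 6 genes without a window. Matching letters describe these windows and do not show that either factor binds there. A missing match in a window of 300 bases does not show that the gene lacks such a site elsewhere.

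The matches upstream of the start are printed for genes that fell, and for Prdx1 as a gene with the core that did not pass the test. Positions count bases from the start, with those before it negative. Each line runs 5′ to 3′ on the strand of the gene, with the matching letters in capitals; a match on the other strand appears as its reverse complement.
Gclm, core on the other strand, chr3:122245397-122245456, plus strand, at -134 to -126 from the start: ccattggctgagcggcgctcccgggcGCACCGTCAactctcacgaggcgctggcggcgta
Nfe2l2, core on the gene's strand, chr2:75704870-75704913, minus strand, at -240 to -232 from the start: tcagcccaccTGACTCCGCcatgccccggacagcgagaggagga
Txnrd1, core on the other strand, chr10:82859088-82859147, plus strand, at -92 to -84 from 1 of its starts: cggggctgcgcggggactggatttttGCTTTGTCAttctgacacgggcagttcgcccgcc
Prdx1, core on the other strand, chr4:116685440-116685499, plus strand, at -133 to -125 from the start: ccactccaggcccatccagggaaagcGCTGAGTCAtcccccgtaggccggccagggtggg
Gpx2, Nkx2-1 letters on the gene's strand, chr12:76795661-76795718, minus strand, at -138 to -132 from the start: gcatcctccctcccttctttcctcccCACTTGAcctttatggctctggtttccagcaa
Txnrd1, Nkx2-1 letters on the other strand, chr10:82833802-82833859, plus strand, at -123 to -117 from another of its starts: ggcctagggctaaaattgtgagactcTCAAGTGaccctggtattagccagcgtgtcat

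A list of 62 further genes of the same pathways, outside the rule, was read in the same fit, and 60 were measured. Of these, 18 rose (30%), beside 7.61% of all transcript clusters and 15.3% of genes above background, where 58 of the 60 lay. Another 16 fell (26.7%), beside 9.24% and 13.9%, and 26 did not pass the test. The median log2 fold change was 0.014.

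For genes around the uptake of cystine and the breakdown of glutathione the values were mixed. Slc7a11, the cystine importer, had log2 values of 8.81, 8.92 and 8.78 in Nkx2-1-shRNA lines and 7.73, 7.73 and 7.85 in control lines. It rose to 210% of control (log2 fold change 1.07, SE 0.081, adjusted p = 4.0e-04), and its partner chain Slc3a2 rose by 0.52 on the same log2 scale (adjusted p = 0.0171). Chac1, which degrades glutathione, had 8.94, 9.13 and 9.05 in Nkx2-1-shRNA lines and 7.54, 7.83 and 7.44 in control lines, and it rose by 1.43 on the log2 scale (SE 0.12, adjusted p = 5.7e-04). Oplah, an oxoprolinase that returns glutamate from glutathione breakdown, had 7.76, 7.64 and 7.57 in Nkx2-1-shRNA lines and 6.63, 6.15 and 6.44 in control lines. Oplah rose by 1.25 (SE 0.13, adjusted p = 0.00138), and Ggct, of the same route, by 0.39 (adjusted p = 0.0203). Of the same route, Chac2 (0.065, adjusted p = 0.786), Ggt5 (-0.011, adjusted p = 0.964), Ggt6 (0.091, adjusted p = 0.621) and Ggt7 (-0.10, adjusted p = 0.49) did not pass the test.

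Txnip, which binds and inhibits thioredoxin, had log2 values of 9.59, 9.47 and 9.71 in Nkx2-1-shRNA lines and 7.03, 6.84 and 6.38 in control lines. It rose to 719% of control (log2 fold change 2.85, SE 0.17, adjusted p = 1.6e-04), where Txn1 fell. Hpgds, a glutathione-dependent prostaglandin D synthase, had 7.97, 7.69 and 7.78 in Nkx2-1-shRNA lines and 6.65, 6.58 and 6.24 in control lines, a rise of 1.32 (SE 0.13, adjusted p = 0.00117). The relatives of Nrf2 differed in direction: Nfe2l1 rose by 0.87 on the log2 scale (adjusted p = 6.4e-04), while Nfe2l3 changed by -0.77 (adjusted p = 0.0124). Of the small Maf partner proteins, Maff rose by 0.74 (adjusted p = 0.00691), while Mafg (0.03, adjusted p = 0.905) and Mafk (-0.031, adjusted p = 0.875) did not pass the test, nor did the competing repressor Bach1 (0.0071, adjusted p = 0.971). Sqstm1, which binds Keap1, rose by 0.42 (adjusted p = 0.0179). Cul3, the ligase scaffold that works with Keap1, rose by 0.29 (adjusted p = 0.0449), a narrow call that passed in 7 of 16 alternatives (adjusted p of 0.0183 to 0.157). Its partner Rbx1 differed by -0.16 (adjusted p = 0.611).

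Among those that fell, Sesn1, a sestrin, had log2 values of 5.87, 6.04 and 6.02 in Nkx2-1-shRNA lines and 7.74, 7.74 and 7.49 in control lines. It fell to 31.2% of control (log2 fold change -1.68, SE 0.10, adjusted p = 1.7e-04). Aox1, an aldehyde oxidase, had 5.93, 6.07 and 5.71 in Nkx2-1-shRNA lines and 7.77, 7.53 and 7.44 in control lines, a change of -1.67 (SE 0.13, adjusted p = 4.2e-04). Cbr1, a carbonyl reductase, had 6.53, 6.58 and 6.64 in Nkx2-1-shRNA lines and 8.57, 8.57 and 7.63 in control lines, a change of -1.67 (SE 0.25, adjusted p = 0.00562). Control line 3 stood nearly 1 log2 unit below the other control lines for Cbr1 and was still above every Nkx2-1-shRNA line. The chromosome neighbors of Sesn1 had a median of -0.31, with 75% of them below 0. Those of Aox1 and Cbr1 had medians of 0.08 and 0.01. The part of these neighborhoods in the falls was not tested. The ferritin chains Fth1 (-0.57, adjusted p = 0.0052) and Ftl1 (-0.65, adjusted p = 0.0106), which store the iron that Hmox1 frees from heme, fell with Hmox1, as did the biliverdin reductase Blvra (-0.56, adjusted p = 0.00602). The other biliverdin reductase, Blvrb, differed by -0.20 (adjusted p = 0.337) with groups that overlapped. Idh1, a cytosolic enzyme that forms NADPH, fell (-0.88, adjusted p = 0.0131), and its mitochondrial counterpart Idh2 rose (0.47, adjusted p = 0.028). Me1, another enzyme that forms NADPH, differed by 0.34 (adjusted p = 0.143) with groups that overlapped. Sesn2 and Ccs also passed in 7 of 16 alternatives each. The remaining rises, of Abcc1, Abcc3, Aldh3a1, Sesn2, Txnrd3 and Ugdh, were 0.47 to 0.75, and the remaining falls, of Abcc4, Abcc5, Cbr3, Ccs, Glrx2, Glrx5, Msrb3 and Txnrd2, were -0.84 to -0.40. Slc3a2, Ggct, Nfe2l1, Nfe2l3, Maff, Sqstm1, Cul3, Fth1, Ftl1, Blvra, Idh1, Idh2, these 14 genes and the related genes set beside them that did not pass the test were named after their values had been seen.

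**Figure D5:**
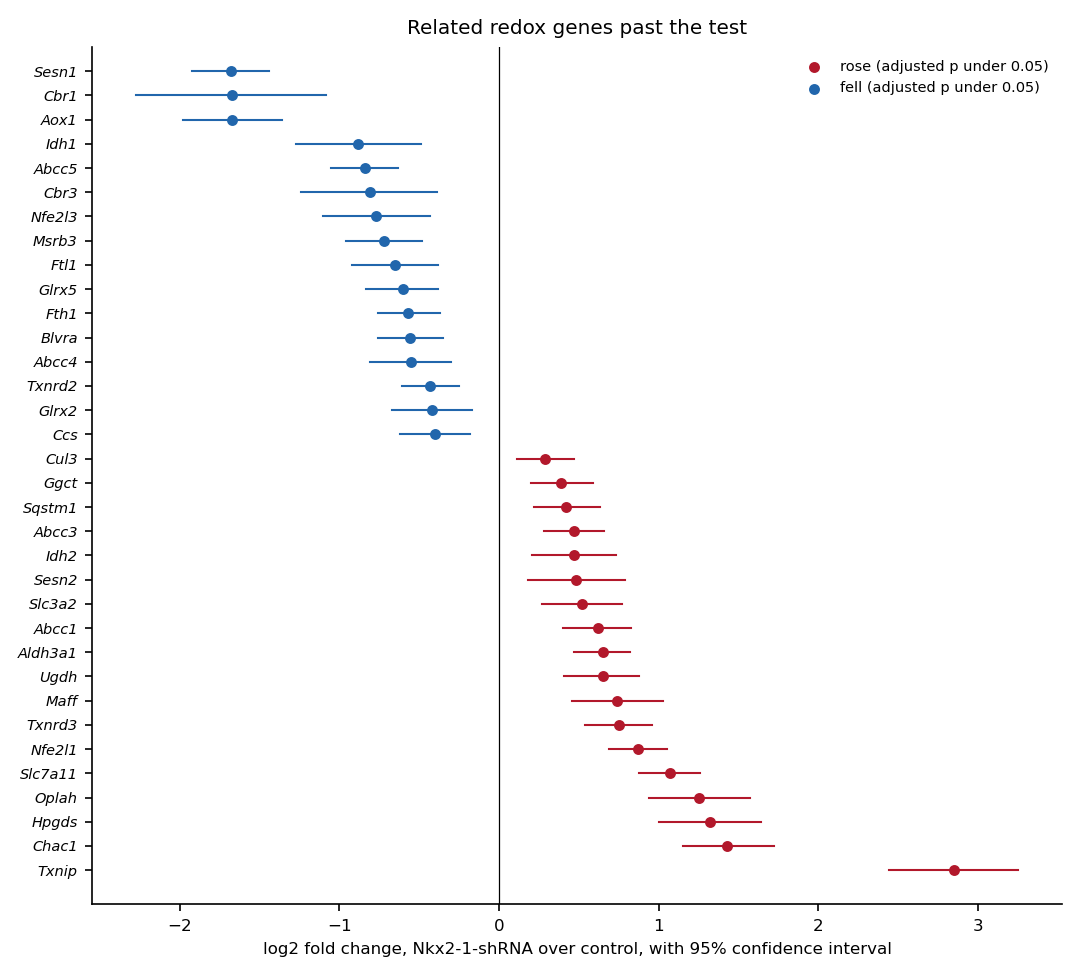
Log2 fold change (Nkx2-1-shRNA over control, horizontal axis) with its 95% confidence interval for the 34 related redox genes that passed the test. The 18 rises are led by Txnip (2.85) and Chac1 (1.43), and the 16 falls by Sesn1 (-1.68), Cbr1 (-1.67) and Aox1 (-1.67).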

How the data were processed

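A Mouse Gene 1.0 ST array (Affymetrix) was run per line, 6 in all. Expression Console 1.1, also from Affymetrix, was used by the authors to turn scans into 1 value per transcript cluster by Robust Multi-Array Analysis, which subtracts background, equalizes the distributions of the arrays and summarizes probes. The deposited log2 values, 0.46 to 13.69, were used as they stand. Such values tend to understate large changes. With no counts on an array, the 3 arrays per group set the precision.

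Gene symbols came from the platform annotation. Each gene was read from the transcript cluster with its highest mean over the 6 arrays. The fit used limma 3.58.1 under R 4.3.3 without a block (lmFit, then eBayes; residual degrees of freedom 4, prior 2.86), with Benjamini-Hochberg adjustment over 35557 transcript clusters. Neighbors followed gene order in RefSeq GRCm38.p6, used for order and promoter windows only. The fit was tested on simulated data.

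Members and lists were chosen with earlier results of these data known. Values per array are given for the genes that passed the test (19 of at most 20), for Nfe2l2, Keap1, Gclc, Gclm, Nqo1, Hmox1, Cat, Sod1, Sod2, Gsr, Gpx1, Gpx4 and Nkx2-1 regardless, and for 8 related genes with the largest changes. Mgst3 was added after its values were seen.

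The alternatives comprised array weights, a trended and robust prior, median centring, quantile normalization run again, tests per gene without a shared prior (the methods' t-test and another with unequal variances), a gene's mean over transcript clusters, and restriction to transcript clusters above background or with 1 symbol. To these came each line left out in turn, a block for replicate number, the study's threshold, 10 neighbors per side and the 90th percentile (3.97) for background. A planned comparison of protein sequences was not run. The microRNA arrays and the other assays of the study were not analysed here.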

Additional observations from a re-analysis of the deposited data

How the results depend on the processing

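No member call reversed under any alternative. The t-tests, the trended and robust prior, the block and the restrictions keep each mean difference, so they could not reverse a call. The restrictions adjust over fewer transcript clusters, and the gene's mean changes only Prdx2 of the called genes, so these could hardly lose a call. Of the 19 calls, none was lost with array weights, the trended and robust prior, repeated quantile normalization, a gene's mean over transcript clusters, or only transcript clusters above background or with 1 symbol. Median centring lost Nfe2l2 and Sod2 and turned the uncalled Keap1 to 0.029. The methods' t-test lost Gpx1, Gsta4, Gstp3, Sod2 and Txn1. The t-test for unequal variances kept 5 members lower and 2 higher (Gclm, Gpx2, Gpx8, Nfe2l2, Prdx2, Gsto1 and Gsto2), related genes at 8 higher and 6 lower, and Nkx2-1 at -0.69 with an adjusted p of 0.055. The methods' t-test left 8 related genes lower. At the study's threshold, set on the limma fit, 1 member was higher and 2 lower, and of the related genes 2 were higher and 2 lower. Leaving out each line gave 2 to 3 members higher and 12 to 18 lower, 12 to 16 related genes higher and 12 to 15 lower, and Nkx2-1 at -0.73 to -0.66. Nfe2l2 and Sod2 were lost without any line but control line 3, and Gpx1, Gstp3 and Txnrd1 without some. Without control line 3, Gstm7, Gstt3 and Mgst1 were gained as lower.

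Same-numbered lines of the groups correlated in their deviations at 0.089, 0.218 and -0.055, and lines of different numbers at -0.287 to 0.222. The numbers were not taken as pairs. With replicate number as a block, 6 members were higher, with Gpx4 (adjusted p = 0.0372), Gstk1 (0.0332) and Mgst3 (0.0206) gained, and 14 lower, without Nfe2l2 (0.0709) and Sod2 (0.0835).

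Genes below background have no readable change, and close copies among the transferases can share probes.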
